A study of Mus musculus with 12 samples.

Results

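The ATP-binding cassette (ABC) genes were followed in mouse bone marrow-derived mesenchymal stromal cells (MSCs) that had been left untreated, treated with A1, or treated with A1 and ovalbumin (OVA). The genes were chosen by name, as protein-coding genes whose symbol is Abc plus a letter from a to g and a number, without Abca1 and Abcg1. This gave 48 of the 21974 protein-coding genes in a count table of 55487 genes. Subfamily A had 15 of them, B had 10, C had 10, D had 4, E had 1, F had 3 and G had 5. Abca8a, Abca8b, Abcb1a and Abcb1b, whose number is followed by a letter, were included. Family members with other names, such as Tap1 and Tap2, were not.

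Each of the 3 groups had 4 samples of polyA RNA from primary MSCs of wild-type C57BL/6 mice. The MSCs were the adherent cells of the marrow of young female mice, grown in AMEM with fetal bovine serum and antibiotics. Control MSCs were untreated, A1-treated MSCs had received 50 μM of A1, a variant of the Accum molecule, for 6 h, and A1 + OVA-treated MSCs had received 50 μM of A1 and 1 mg/ml of OVA, a model antigen from egg white, for 6 h. The description of the medium also names insulin for A1 + OVA and not for A1 alone, so that OVA and any insulin cannot be told apart. Whether the samples of a group came from separate animals or cultures is not stated, and the p-values therefore measure the spread between these samples, which may be technical.

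Each sample had between 13702348 and 16881995 counts. Of 10 MSC markers, 8 had enough counts to be tested, while Thy1 and Lepr had at most 17 and 16 counts in any sample. Nt5e, one of the 8, was as rare, with at most 14 counts. Neither Nt5e nor Eng passed an adjusted p of 0.05 against control in either treatment (edgeR's quasi-likelihood test). The summed level of these 10 markers was 4850 to 5085 CPM (counts scaled to a common library size) in control, 2579 to 2690 CPM in A1-treated and 2670 to 2796 CPM in A1 + OVA-treated MSCs, and most of it was Cxcl12. Without Cxcl12 the sum was 1043 to 1111, 1103 to 1135 and 1016 to 1028 CPM. Cxcl12, Pdgfra, Vcam1 and Ly6a fell in both treatments, and Cd44 rose from 175 ± 6.51 to 458 ± 14.2 and 402 ± 15.6 CPM (SD, n = 4). Pdgfrb was at 389 ± 21.3 CPM in control, 387 ± 8.98 CPM in A1-treated and 354 ± 3.76 CPM in A1 + OVA-treated MSCs. It was lower than in control with A1 + OVA only (log2 fold change -0.14, adjusted p = 0.00519 by edgeR's quasi-likelihood test). Of 7 leukocyte markers, 2 could be tested (Cd68 and Cd14), Ptprc had at most 4 counts, and the sum was 9.41 to 10.5 CPM in control, 11.98 to 14.7 CPM in A1-treated and 10.7 to 13.1 CPM in A1 + OVA-treated MSCs. Most of it was Cd14, which rose in both treatments, and without it the sum was 1.88 to 2.66, 1.68 to 2.11 and 2.03 to 3.02 CPM, with groups that overlapped. The endothelial, erythroid and B cell markers had at most 5 counts in any sample. The part of these differences in the results on ABC genes was not tested.

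ABC proteins bind and split ATP with a conserved cassette, and most of them use it to move a substrate across a membrane. In mammals, subfamily A mainly moves lipids, B and C hold the drug and conjugate exporters as well as mitochondrial transporters, and D moves fatty acyl-CoA into peroxisomes. Subfamily G holds sterol transporters and a drug exporter. Subfamilies E and F have the cassette without a membrane part, transport nothing, and act on ribosomes.

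In control MSCs, the highest RNA levels were those of Abce1, Abcf2 and Abcf1, genes of ABC proteins that do not transport. Levels of different genes were compared per length, in RPKM (counts per kilobase of exons, scaled to the library size as CPM are). Abce1, which takes ribosomes apart at the end of translation, was at 80.3 ± 2.27 RPKM (SD, n = 4). Abcf2 and Abcf1 followed at 65.7 ± 2.68 and 49.4 ± 1.25 RPKM (SD, n = 4). The next in order was the peroxisomal Abcd3 at 17.1 ± 0.497 RPKM, a level 21.3% of that of Abce1. The top gene of each other subfamily was Abcc4 (14.5 ± 0.647 RPKM), Abcg2 (10.9 ± 0.396 RPKM), Abcb10 (9.95 ± 0.238 RPKM) and Abca7 (5.08 ± 0.458 RPKM, each SD, n = 4). The top B, C and F genes depend on the length used. With the longest transcript in place of all exons, Abcc5 (21.1 RPKM) and Abcc1 (16.6 RPKM) were above Abcc4 (16.2 RPKM). Abcb1b (13.3 RPKM) was then above Abcb10 (9.95 RPKM), and Abcf1 (68.95 RPKM) above Abcf2 (65.7 RPKM). Abcf3, whose protein also does not transport, was at 12.6 ± 0.618 RPKM with all exons (SD, n = 4), below Abcd3 and Abcc4. Of the 48 genes, 19 reached 1 RPKM in control MSCs. The lowest of the tested genes were Abcb1a at 0.254 ± 0.0601 RPKM and Abcb6 at 0.231 ± 0.0208 RPKM, which overlapped between samples.

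**Figure D1:**
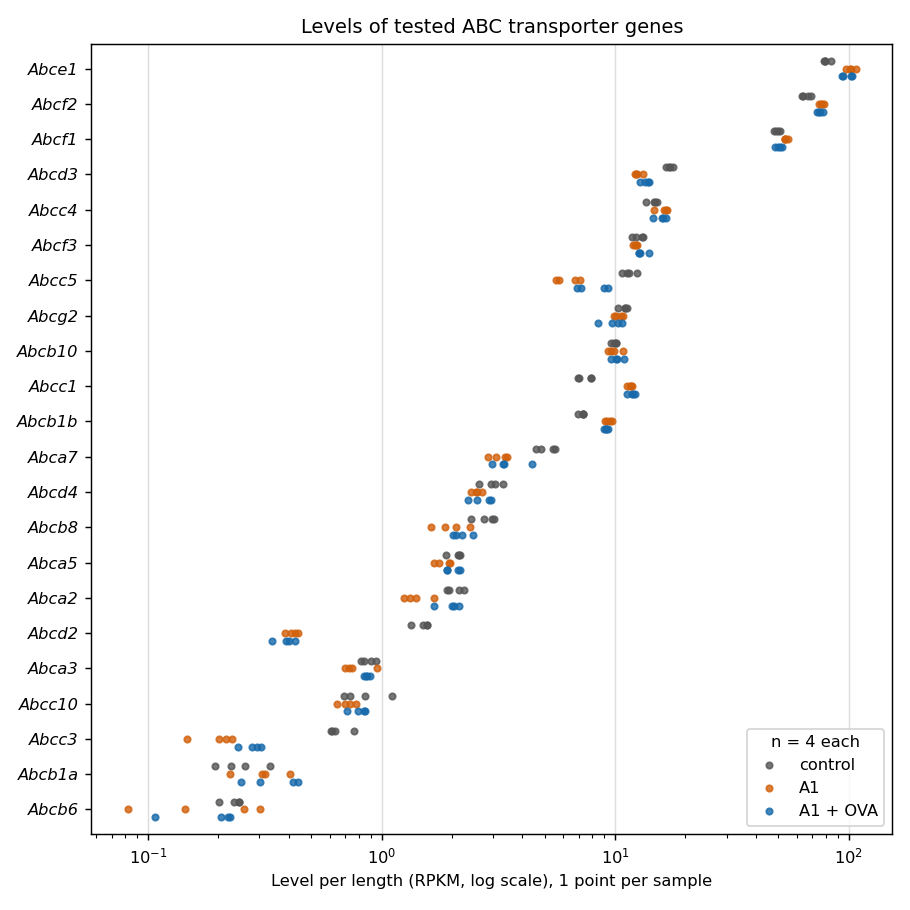
Level per length of the tested ABC transporter genes reported here, in RPKM on a log scale, with 1 point per sample (n = 4 per group) and the genes ordered by their control mean. Abce1, Abcf2 and Abcf1 lie above all others, and the treated samples of Abcd2 and Abcc3 lie to the left of their control samples.

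The order of the genes changed little with treatment. Abce1, Abcf2 and Abcf1 were the first 3 in all groups. Abcc5, an exporter of cyclic nucleotides and other organic anions, was at rank 7 in control MSCs and at rank 12 in both treated groups. Abcc1, the multidrug resistance-associated protein that exports glutathione conjugates, was at rank 11 in control MSCs and at rank 7 in both treated groups. Its place in control MSCs depends on the gene length used, since it was at rank 6 with the longest transcript in place of all exons.

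Added together, the 48 genes had 1771 ± 34.9 CPM in control, 1885 ± 19 CPM in A1-treated and 1887 ± 15.3 CPM in A1 + OVA-treated MSCs (SD, n = 4). Subfamilies E and F held 51.6% of this sum in control, 57.9% in A1-treated and 55.9% in A1 + OVA-treated MSCs. Their own sum was 914 ± 17.4 CPM in control MSCs, 1091 ± 21.3 CPM with A1 and 1055 ± 28.1 CPM with A1 + OVA. Abce1 alone made up 482.1 CPM of it in control MSCs, 614.4 CPM with A1 and 593.5 CPM with A1 + OVA. The sum of subfamilies A, B, C, D and G was 858 ± 24.1 CPM in control MSCs, 794 ± 21.3 CPM with A1 and 832 ± 14 CPM with A1 + OVA (SD, n = 4). In the first of these sums all treated samples lay above all control samples, and in the second the A1-treated samples lay below them.

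Of the 48 genes, 24 passed the filter on low counts. With A1, 6 of the 24 rose, 11 fell and 7 did not pass an adjusted p of 0.05 in edgeR's quasi-likelihood test. Of all 11314 tested genes, 31.7% were called higher and 31.1% lower. The share of ABC genes called was 70.8%, beside 62.7% of all tested genes, so that it was near the background of this comparison. When DEGs were also required to have a log2 fold change of 0.5 or more in size, 1 gene rose and 6 fell, which was 29.2% of the 24 beside 21% of all genes. The 6 that fell stand beside 11.6% of all genes lower by this rule, and the 1 that rose beside 9.41% higher. The 4 treated samples lay above all control samples for 5 genes and below them for 9, against 28% and 26.4% of all tested genes. The median log2 fold change was -0.20, beside -0.0017 over all tested genes.

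In A1 + OVA-treated MSCs, which were compared with the same 4 control samples, 5 of the 24 genes rose, 9 fell and 10 did not pass (edgeR's quasi-likelihood test). Of all genes, 29.7% were called higher and 27.9% lower. The share of ABC genes called was 58.3%, beside 57.6% of all genes. As DEGs, 1 rose, beside 8.92% of all genes, and 5 fell, beside 8.79%, which together was 25% of the 24 beside 17.7% of all genes. The 4 treated samples lay above all control samples for 4 genes and below them for 7, against 25.4% and 24% of all tested genes. The median log2 fold change was -0.07, beside 0.0036 over all tested genes.

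**Figure D2:**
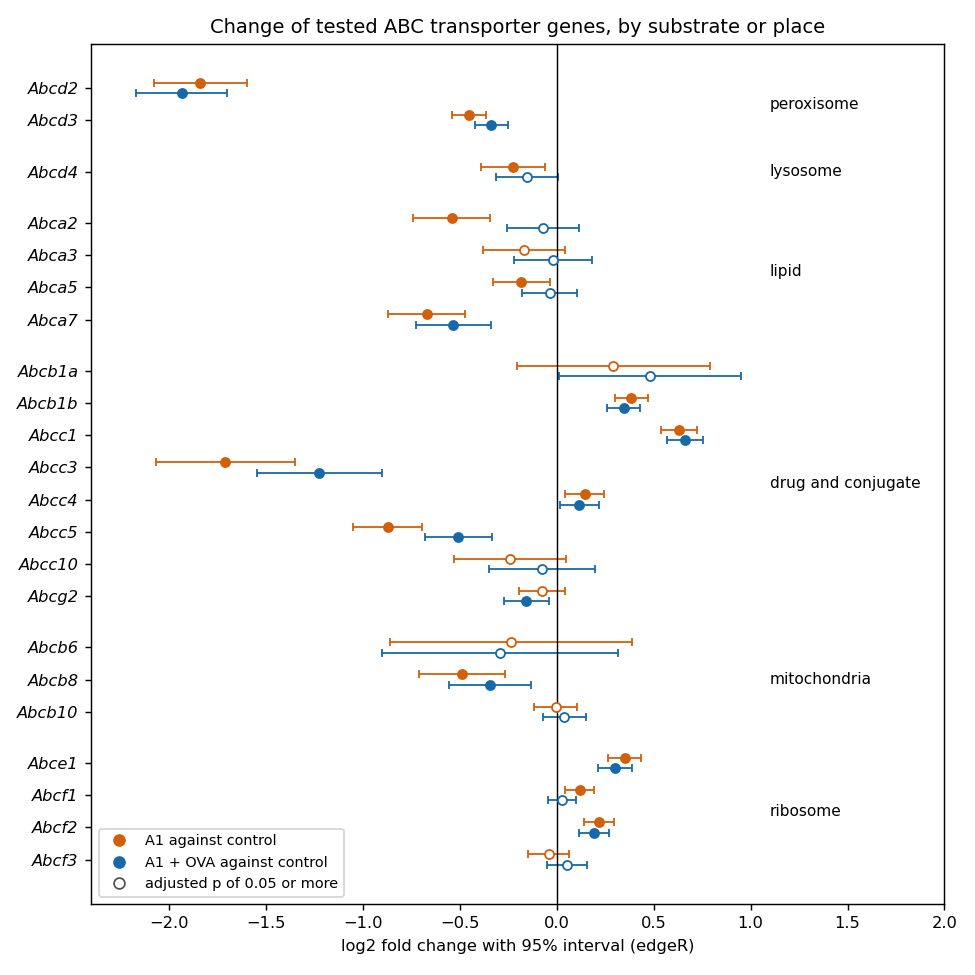
Log2 fold change against control MSCs of the tested ABC transporter genes reported here, grouped by substrate or place. Bars are 95% intervals derived from edgeR's quasi-likelihood test, and open symbols have an adjusted p of 0.05 or more. The peroxisomal Abcd2 and Abcd3 lie left of 0 in both treatments, and none of the 4 ribosomal genes is called lower. Among all tested genes, 31.1% are called lower with A1 and 27.9% with A1 + OVA.

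The peroxisomal transporters Abcd2 and Abcd3 fell in both treatments, beside 31.1% of all tested genes lower with A1 and 27.9% with A1 + OVA. Both carry fatty acyl-CoA into the peroxisome for its fatty acid oxidation, Abcd2 with very long-chain substrates and Abcd3 with branched-chain acids, long-chain dicarboxylic acids and bile acid precursors. In each treatment, all 4 treated samples of each lay below all control samples, against 26.4% and 24% of all tested genes. In these bulk samples, fewer cells that express a gene and less RNA per cell cannot be told apart.

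Abcd2 (ENSMUSG00000055782, chromosome 15 from 91145871 to 91191799, GRCm38) had the largest fold change of the tested ABC genes. Its control samples were at 8.91, 9.28, 9.28 and 7.96 CPM. The A1-treated samples were at 2.60, 2.29, 2.44 and 2.54 CPM and the A1 + OVA-treated samples at 2.39, 2.03, 2.31 and 2.53 CPM. The samples of each treatment were close together and far under the lowest control sample. The log2 fold change was -1.84 (SE 0.115, adjusted p = 8.4e-12 by edgeR's quasi-likelihood test) with A1 and -1.93 (SE 0.113, adjusted p = 3.14e-12) with A1 + OVA.

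Abcd3 (ENSMUSG00000028127, chromosome 3 from 121758774 to 121815302), the gene of the major peroxisomal membrane protein, was at 109, 113, 113 and 117 CPM in the control samples. It was at 81.9, 81.2, 80.0 and 86.5 CPM in the A1-treated samples and at 88.8, 92.4, 84.0 and 91.6 CPM in the A1 + OVA-treated samples. On the log2 scale the change was -0.45 (SE 0.0414, adjusted p = 4.27e-09 by edgeR's quasi-likelihood test) with A1 and -0.34 (SE 0.0408, adjusted p = 3.37e-07) with A1 + OVA, a smaller change than that of Abcd2.

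Of the 3 genes that insert peroxisomal membrane proteins, Pex19, the chaperone of the newly made proteins, fell by 0.38 with A1 and by 0.31 with A1 + OVA on the log2 scale. Its docking receptor Pex3 fell by 0.14 with A1 and had a log2 fold change of -0.09 with A1 + OVA (adjusted p = 0.172 by edgeR's quasi-likelihood test). Pex16 had -0.26 and -0.04, neither of which passed. Another D gene, Abcd4, acts in the lysosome, where it exports cobalamin. Its log2 fold change was -0.23 with A1 (adjusted p = 0.0164 by edgeR's quasi-likelihood test) and -0.15 with A1 + OVA (adjusted p = 0.0946). The first of these calls was lost without the control sample 3 (adjusted p = 0.0755). The second was gained without the control sample 2 (adjusted p = 0.022) or the A1 + OVA sample 4 (adjusted p = 0.0462). Its partner Lmbrd1, which releases cobalamin from the lysosome with it, fell by 0.32 with A1 and by 0.20 with A1 + OVA. Of the cytosolic cobalamin carriers, Mmachc rose with A1 + OVA by 0.30 on the log2 scale and Mmadhc did not pass in either treatment.

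**Figure D3:**
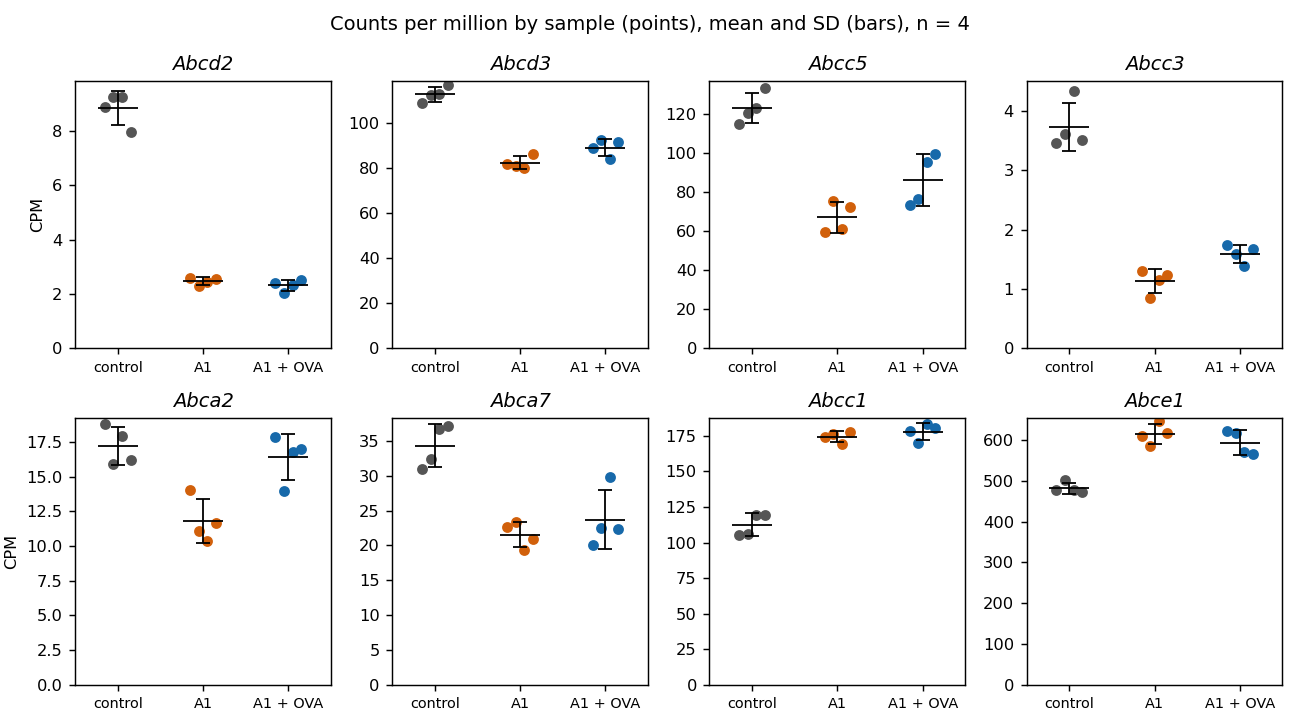
CPM in each sample (points), group mean and SD (bars) of 8 ABC transporter genes in control, A1-treated and A1 + OVA-treated MSCs, with 4 samples each and axes from 0. The treated samples of Abcd2, Abcd3, Abcc5, Abcc3 and Abca7 lie below the control samples and those of Abcc1 and Abce1 above them, while Abca2 lies below them in A1-treated MSCs only.

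Drug and conjugate exporters moved in both directions. Of the 9 listed, 8 were tested, and Abcc2 had at most 3 counts in any sample. With A1, 3 rose (Abcc1, Abcb1b and Abcc4) and 2 fell (Abcc3 and Abcc5). With A1 + OVA the counts were 3 and 3, as Abcg2 was also called lower. These are 62.5% and 75% of the 8 genes, beside 62.7% and 57.6% of all tested genes.

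Abcc1 (ENSMUSG00000023088, chromosome 16 from 14361558 to 14475737) was the only ABC gene that rose as a DEG. Its control samples were at 105, 106, 120 and 119 CPM. The A1-treated samples were at 174, 176, 169 and 178 CPM and the A1 + OVA-treated samples at 179, 170, 183 and 180 CPM. All treated samples lay above all control samples, and the treatments overlapped each other. This gave a log2 fold change of 0.63 (SE 0.0447, adjusted p = 6.23e-11 by edgeR's quasi-likelihood test) with A1 and 0.66 (SE 0.0444, adjusted p = 3.03e-11) with A1 + OVA.

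Abcc3 (ENSMUSG00000020865, chromosome 11 from 94343295 to 94392997), which exports glucuronides and bile acids, was rare and fell. It was at 3.47, 3.61, 4.33 and 3.51 CPM in the control samples, at 1.30, 0.840, 1.145 and 1.23 CPM in the A1-treated samples and at 1.74, 1.58, 1.39 and 1.66 CPM in the A1 + OVA-treated samples. Against control, the log2 fold change was -1.71 (SE 0.172, adjusted p = 2.02e-08 by edgeR's quasi-likelihood test) with A1 and -1.22 (SE 0.155, adjusted p = 6.78e-07) with A1 + OVA. Every A1 + OVA-treated sample was above every A1-treated sample, but the difference of 0.49 between the treatments did not pass (SE 0.208, adjusted p = 0.149). A set of 4 adipocyte markers also differed at low levels, with a sum of 2.95 to 5.01 CPM in control, 1.38 to 1.95 CPM in A1-treated and 1.32 to 2.32 CPM in A1 + OVA-treated MSCs. Of these markers, 2 could be tested, Lep was at 0 and Adipoq fell by 1.71 with A1 on the log2 scale. Their part in the values of rare genes such as Abcc3 and Abcd2 was not tested.

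Abcc5 (ENSMUSG00000022822, chromosome 16 from 20331303 to 20426394) was at 115, 120, 123 and 133 CPM in the control samples. It was at 59.7, 75.6, 61.2 and 72.0 CPM in the A1-treated samples and at 73.1, 76.5, 95.5 and 99.5 CPM in the A1 + OVA-treated samples. The A1 + OVA-treated samples were spread widely, with samples 1 and 2 near the highest A1-treated samples and samples 3 and 4 between them and the control samples. This split was not limited to Abcc5. Over tested genes with enough counts, the variance between samples 1 and 2 was 2.42 times that of counting error. It was 2.56 times for samples 3 and 4 and 5 to 5.82 times for the other pairs of A1 + OVA-treated samples. On average, Abcc5 had a log2 fold change of -0.87 (SE 0.0854, adjusted p = 1.29e-08 by edgeR's quasi-likelihood test) with A1 and -0.51 (SE 0.0826, adjusted p = 1.97e-05) with A1 + OVA.

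Of the exporters with smaller changes, Abcb1b, a P-glycoprotein that pumps many hydrophobic drugs out of the cell, rose from 57.5 ± 1.35 CPM in control to 75.0 ± 2.17 CPM in A1-treated and 73.0 ± 1.42 CPM in A1 + OVA-treated MSCs (SD, n = 4). Its log2 fold change was 0.38 (SE 0.0407, adjusted p = 4.31e-08 by edgeR's quasi-likelihood test) with A1 and 0.34 (SE 0.0404, adjusted p = 2.24e-07) with A1 + OVA. Its neighbour on chromosome 5, Abcb1a, the other P-glycoprotein gene, was at 1.39 ± 0.329 CPM in control MSCs, and its log2 fold changes of 0.29 (95% interval -0.20 to 0.79) and 0.48 (0.010 to 0.95) did not pass after adjustment. The second was called without the control sample 2 (adjusted p = 0.0309) or the A1 + OVA sample 1 (adjusted p = 0.0293, edgeR's quasi-likelihood test). Of the 100-base windows of the longest Abcb1b transcript, 8.72% also occur in another ABC gene, most often in Abcb1a. The values of Abcb1b and Abcb1a are uncertain where a read pair lies within such windows. How the reads there were assigned was not tested.

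Abcc4 exports cyclic nucleotides and prostaglandins and was the highest C gene with all exons as length. It was at 86.8, 96.3, 93.5 and 94.3 CPM in the control samples. It was at 104, 106, 94.2 and 107 CPM with A1 and at 105.7, 101.7, 92.6 and 102.2 CPM with A1 + OVA, so that both treatments overlapped the control samples. In the fit, the log2 fold change was 0.14 (SE 0.0487, adjusted p = 0.0136 by edgeR's quasi-likelihood test) with A1 and 0.12 (SE 0.0484, adjusted p = 0.0444) with A1 + OVA. The call with A1 was lost without the control sample 1 (adjusted p = 0.0507) or the A1 sample 4 (adjusted p = 0.0623). The call with A1 + OVA was lost in 15 of 20 alternatives, among them DESeq2 (adjusted p = 0.0756) and the fit without the control sample 1 (adjusted p = 0.141).

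Abcg2, the breast cancer resistance protein and a marker of side population cells, was at 90.0, 89.5, 91.6 and 84.1 CPM in the control samples. It was at 82.4, 80.3, 86.1 and 88.1 CPM with A1 and at 83.7, 86.9, 79.4 and 68.8 CPM with A1 + OVA, and the groups overlapped. Abcg2 had a log2 fold change of -0.08 with A1 (SE 0.0564, 95% interval -0.19 to 0.041) and -0.16 with A1 + OVA (SE 0.0561, adjusted p = 0.0206 by edgeR's quasi-likelihood test). The second call rests on the A1 + OVA sample 4, without which the log2 fold change was -0.09 (adjusted p = 0.113), and was also lost without the control sample 3 (adjusted p = 0.0582). Abcc10, an exporter of lipophilic drugs and conjugates, had log2 fold changes of -0.24 (95% interval -0.53 to 0.050) and -0.08 (-0.35 to 0.20), which did not pass.

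The genes that supply and attach glutathione, a cosubstrate of some C exporters, were read beside the exporters. Their list was chosen with earlier results of these data known. Of 7 such genes, 5 rose and 2 fell in each treatment (edgeR's quasi-likelihood test), where 31.7% and 29.7% of all tested genes were called higher and 31.1% and 27.9% lower. Gss, glutathione synthetase, rose from 27.5 ± 1.66 CPM in control to 53.9 ± 2.73 CPM in A1-treated and 52.4 ± 1.94 CPM in A1 + OVA-treated MSCs (SD, n = 4). Its log2 fold change was 0.97 (SE 0.055, adjusted p = 1.57e-12) with A1 and 0.93 (SE 0.0546, adjusted p = 3.21e-12) with A1 + OVA by edgeR's quasi-likelihood test. Both subunits of the preceding enzyme rose less, Gclc by 0.28 and 0.23 and Gclm by 0.25 and 0.30 on the log2 scale. Of the glutathione transferases, Gsta4, which acts on lipid aldehydes, fell by 0.90 and 0.66, and Gstm1 fell by 0.48 and 0.37, while Gsto1 and Gstp1 rose by 0.44 and 0.24 with A1.

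Lipid transporters of subfamily A had 4 tested genes of 14, as the retinoid transporter Abca4 was listed apart. With A1, 3 fell and 0 rose (edgeR's quasi-likelihood test), beside 31.1% of all tested genes lower and 31.7% higher. With A1 + OVA, 1 fell and 0 rose, beside 27.9% lower and 29.7% higher. All 4 had a log2 fold change below 0 in each treatment, so that 0 were higher also at an unadjusted p under 0.05 and with DESeq2.

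Abca7 (ENSMUSG00000035722, chromosome 10 from 79996494 to 80015572), which moves phospholipids and takes part in phagocytosis, fell in both treatments. It was at 30.9, 32.5, 36.7 and 37.2 CPM in the control samples, at 22.7, 23.3, 19.3 and 20.9 CPM in the A1-treated samples and at 20.1, 22.5, 29.8 and 22.4 CPM in the A1 + OVA-treated samples. One A1 + OVA sample came close to the lowest control sample, and the groups did not overlap. The log2 fold change was -0.67 (SE 0.0952, adjusted p = 2.99e-06 by edgeR's quasi-likelihood test) with A1 and -0.53 (SE 0.0922, adjusted p = 4.06e-05) with A1 + OVA.

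Abca2 (ENSMUSG00000026944, chromosome 2 from 25428703 to 25448540), a lipid transporter of late endosomes and lysosomes, had the smallest adjusted p of the ABC genes between the treatments. It was at 18.8, 15.9, 17.9 and 16.2 CPM in the control samples, at 14.03, 11.1, 10.4 and 11.7 CPM in the A1-treated samples and at 17.8, 13.99, 16.8 and 17.01 CPM in the A1 + OVA-treated samples. The A1-treated samples lay below all control samples, and the A1 + OVA-treated samples overlapped them. The log2 fold change was -0.54 (SE 0.0959, adjusted p = 4.75e-05 by edgeR's quasi-likelihood test) with A1 and -0.07 (SE 0.0891, 95% interval -0.26 to 0.11) with A1 + OVA.

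Abca5, another endolysosomal lipid transporter, fell by 0.18 with A1 on the log2 scale (adjusted p = 0.0301 by edgeR's quasi-likelihood test) and had -0.04 with A1 + OVA. The call with A1 was lost in 5 fits without 1 sample, with an adjusted p of 0.0585, 0.0789 and 0.0711 without the control samples 2, 3 and 4, and of 0.0749 and 0.114 without the A1 samples 1 and 2. Abca3, the surfactant lipid transporter, had -0.17 (95% interval -0.38 to 0.041) and -0.02 (-0.22 to 0.18). It was called lower with A1 only without the A1 sample 3 (adjusted p = 0.0173).

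Of the mitochondrial B genes, Abcb8, part of a mitochondrial potassium channel complex, fell by 0.49 with A1 and by 0.34 with A1 + OVA on the log2 scale (edgeR's quasi-likelihood test). Abcb10, which takes part in heme synthesis, was the highest B gene with all exons as length. It was at 42.8, 43.6, 41.4 and 43.5 CPM in the control samples. It was at 42.8, 40.2, 41.2 and 46.4 CPM with A1 and at 43.6, 47.0, 44.0 and 41.5 CPM with A1 + OVA. The groups overlapped throughout, and the 95% intervals of the log2 fold change were -0.12 to 0.11 and -0.07 to 0.15.

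Abcb6, a porphyrin transporter, was at about 1 CPM, and its 95% intervals were wider, from -0.86 to 0.39 with A1 and from -0.90 to 0.32 with A1 + OVA. In addition, 55.2% of its exon bases are also exon bases of the gene model Gm29253 on the same strand, so that its count is uncertain. Among 7 genes for mitochondrial iron-sulfur clusters and heme, 2 rose and 1 fell with A1, and 3 rose and 1 fell with A1 + OVA (edgeR's quasi-likelihood test). These are 42.9% and 57.1% of the list, beside 62.7% and 57.6% of all tested genes. The one that fell in each was Fech, the last enzyme of heme synthesis, by 0.25 and 0.23 on the log2 scale, and the iron importer Slc25a28 rose by 0.35 and 0.29.

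None of the 4 ribosome-bound E and F genes was called lower in either treatment, also at an unadjusted p under 0.05. Of all tested genes, 31.1% were called lower with A1 and 27.9% with A1 + OVA. With A1, 3 of 4 rose, and with A1 + OVA 2 rose (edgeR's quasi-likelihood test), beside 31.7% and 29.7% of all tested genes higher. Abce1 (ENSMUSG00000058355, chromosome 8 from 79683462 to 79711740) was at 477, 502, 477 and 473 CPM in the control samples, at 609, 586, 646 and 617 CPM in the A1-treated samples and at 622, 617, 570 and 565 CPM in the A1 + OVA-treated samples. All treated samples lay above all control samples. The log2 fold change was 0.35 (SE 0.0414, adjusted p = 2.3e-07) with A1 and 0.30 (SE 0.0414, adjusted p = 2.36e-06) with A1 + OVA.

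Abcf2 (ENSMUSG00000028953, chromosome 5 from 24565345 to 24577467), a little studied F protein, was at 162, 165, 177 and 172 CPM in the control samples. It was at 197, 196, 193 and 201 CPM with A1 and at 200, 193, 192 and 188 CPM with A1 + OVA, again without overlap with the control samples. The log2 fold change was 0.22 (SE 0.0371, adjusted p = 2.84e-05 by edgeR's quasi-likelihood test) with A1 and 0.19 (SE 0.0369, adjusted p = 0.000125) with A1 + OVA. Abcf1, which binds eIF2 and takes part in starting translation, rose by 0.12 with A1 on the log2 scale and had 0.03 with A1 + OVA (95% interval -0.05 to 0.10). Abcf3 had -0.04 and 0.05 and did not pass.

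Of the genes that work with them, Etf1, the release factor that Abce1 meets on the ribosome, rose from 411 ± 13.3 CPM to 508 ± 30.4 and 482 ± 31.6 CPM (SD, n = 4), with log2 fold changes of 0.30 and 0.23. The rescue factors Pelo and Hbs1l did not pass in either treatment. All 4 listed eIF2 and Gcn1 partners of the F proteins rose in both treatments (edgeR's quasi-likelihood test), as did 31.7% of all tested genes with A1 and 29.7% with A1 + OVA. They were Eif2s1 (0.47 and 0.44), Eif2s2 (0.29 and 0.20), Eif2s3x (0.25 and 0.13) and Gcn1, listed as Gcn1l1 (0.27 and 0.39), on the log2 scale. Over all 41 partner and regulator genes listed, 35 were tested, of which 15 rose and 9 fell with A1 and 16 rose and 8 fell with A1 + OVA. The share called was 68.6% in each treatment, near the 62.7% and 57.6% of all tested genes. These lists were chosen with earlier results of these data known, so that their counts only describe the listed genes.

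Among the nuclear receptors and other factors that can induce transporter genes, 3 rose and 3 fell of 8 tested with A1, and 2 rose and 3 fell with A1 + OVA (edgeR's quasi-likelihood test). The shares called, 75% and 62.5%, stand beside the same background of 62.7% and 57.6%. Nr1h3, the oxysterol receptor LXR alpha, fell from 5.70 ± 0.372 CPM to 2.81 ± 0.413 and 3.38 ± 0.461 CPM (SD, n = 4), with log2 fold changes of -1.02 (SE 0.133, adjusted p = 9.4e-07) and -0.76 (SE 0.125, adjusted p = 2.17e-05). Its partner Rxra fell by 0.38 and 0.36. Nfe2l2, which codes for the antioxidant factor NRF2, rose by 0.40 and 0.36. The xenobiotic receptor Nr1i2 had 0 counts in every sample, while Nr1i3, Nr1h4 and Ppara had at most 4, 6 and 1 counts.

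Promoter sequence is given for 4 genes that stand for the groups above, Abcd3 and Abcc5, which fell, and Abcb1b and Abce1, which rose. The 250 bases before the start that RefSeq gives on GRCm38.p6, which held an entry for 37 of the 48 genes, are written 5′ to 3′ on the strand of the gene. For the 4 genes shown, this start is also the gene start of the coordinates used here. For Abcb1a and Abcc12, which count in the totals below, it lies 92986 and 14096 bases from that gene start. Capitals mark matches on either strand to GGGCGG (the GC box), CACGTG (a palindromic E-box), TGACGTCA (the cAMP response element), TGACNNNGC (the core of the antioxidant response element) or TATAAA (the TATA box).
Abcd3, chr3:121815303-121815552, minus strand: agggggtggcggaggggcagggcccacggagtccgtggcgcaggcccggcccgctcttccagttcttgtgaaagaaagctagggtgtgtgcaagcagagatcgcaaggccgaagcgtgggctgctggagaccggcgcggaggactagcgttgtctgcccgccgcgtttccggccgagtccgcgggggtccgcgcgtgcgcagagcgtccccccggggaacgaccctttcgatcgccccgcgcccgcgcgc
Abcc5, chr16:20426395-20426644, minus strand: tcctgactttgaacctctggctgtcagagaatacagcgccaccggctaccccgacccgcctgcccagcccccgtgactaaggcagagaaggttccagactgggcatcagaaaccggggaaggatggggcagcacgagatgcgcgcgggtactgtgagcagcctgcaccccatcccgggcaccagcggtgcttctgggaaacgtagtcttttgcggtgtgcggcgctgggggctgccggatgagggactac
Abcb1b, chr5:8797897-8798146, plus strand: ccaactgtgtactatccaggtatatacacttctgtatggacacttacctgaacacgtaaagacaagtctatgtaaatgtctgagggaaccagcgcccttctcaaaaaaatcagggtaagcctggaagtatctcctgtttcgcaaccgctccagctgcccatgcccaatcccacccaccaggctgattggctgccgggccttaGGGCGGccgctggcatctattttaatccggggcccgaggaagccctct
Abce1, chr8:79711741-79711990, minus strand: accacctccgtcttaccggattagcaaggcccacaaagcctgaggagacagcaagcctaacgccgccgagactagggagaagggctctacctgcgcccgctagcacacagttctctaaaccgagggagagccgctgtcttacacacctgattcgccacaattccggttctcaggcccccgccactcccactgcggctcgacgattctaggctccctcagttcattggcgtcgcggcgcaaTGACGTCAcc

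The GC box was in the window of Abcb1b and in 32.7% of all 32851 RefSeq promoters, and the cAMP response element was in the window of Abce1, directly before its start, and in 1.55% of all promoters. The windows of Abcd3 and Abcc5 held none of the 5 motifs. Among ABC genes called higher with A1, 4 of the 5 with an entry held the GC box (Abcb1b, Abcc4, Abcf1 and Abcf2), as did 2 of the 5 called lower (Abca5 and Abca7), 4 of the 7 tested and not called (Abca3, Abcb6, Abcc10 and Abcf3) and 5 of the 20 not tested. The E-box, in 6.02% of all promoters, was in Abcc4, Abcf1, Abca8a and Abca15, and the antioxidant response element core, in 10.2% of all promoters, was in Abcc4, Abcc10 and Abcc2. A match describes these letters and was not tested as a site.

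Comparing A1 + OVA with A1 directly, 2 of the 24 genes were called higher and 0 lower, a share of 8.33% beside 12.9% of all tested genes, of which 6.05% were higher and 6.81% lower (edgeR's quasi-likelihood test). DESeq2 also called 2 higher and 0 lower, and at an unadjusted p under 0.05 the only gene lower was Abcf1. No ABC gene was a DEG between the treatments, where 1.2% of all genes were (0.769% higher and 0.433% lower). The samples of the treatments did not overlap for Abcc3 and Abcf3, which were higher with OVA, and for Abcf1, which was lower, against 8.56% and 9.58% of all genes. Abca2 was higher with OVA by 0.47 on the log2 scale (SE 0.0974, adjusted p = 0.00281), and Abcc5 was higher by 0.36 (SE 0.0875, adjusted p = 0.00855). The mean of each with OVA lay between those of A1-treated and control MSCs. For the other 22 genes no difference passed, with log2 differences from -0.10 to 0.49. At 95%, the interval of the difference was -0.41 to 0.22 for Abcd2 and -0.06 to 0.12 for Abcc1. Without the A1 + OVA sample 3, Abcd3 was also called higher with OVA (0.14, adjusted p = 0.0413).

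The remaining 24 genes could not be tested at this depth, and 18 of them were not detectable, with at most 3 counts in every sample, which corresponds to 0.177 to 0.229 CPM. There were 5 genes with 0 counts in all 12 samples. These were Abca14, Abcb5, Abcg3 and both genes of the sterol exporter of intestine and liver, Abcg5 and Abcg8. A count of 0 limits the level in the bulk RNA and does not show that no cell expresses the gene.

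The other 13 undetectable genes had between 1 and 3 counts in their highest sample. In subfamily A they were Abca6, Abca15, Abca16 and Abca17 (1 count), Abca12, the lipid transporter of skin (2 counts), and Abca13 (3 counts). In subfamily B they were Abcb4, the phosphatidylcholine transporter of bile, and the lysosomal peptide transporter Abcb9 (3 counts each). In subfamily C they were Abcc2, the conjugate exporter of bile, with 3 counts, Abcc6, which brings about ATP release from liver, with 2 counts, and Abcc12 with 2 counts. Abcc8 and Abcc9, the sulfonylurea receptors, had 1 and 3 counts, and their channel partners Kcnj11 and Kcnj8 had 1 and 0.

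A further 6 genes had more counts but too few to test. Abca9 had the most, with 13, 19, 13 and 10 counts in the control samples, 7, 1, 4 and 0 in the A1-treated samples and 5, 0, 3 and 2 in the A1 + OVA-treated samples. Every control sample of Abca9, a lipid transporter gene in a cluster on chromosome 11, was above every treated sample. When the filter on low counts was left out, it had a log2 fold change of -1.88 with A1 (adjusted p = 0.000592 by edgeR's quasi-likelihood test) and -2.31 with A1 + OVA (adjusted p = 5.36e-05). The others had at most 4 (Abca4), 9 (Abca8a), 8 (Abca8b), 10 (Abcb11, the bile salt export pump) and 9 counts (Abcg4). Without the filter, Abcb11 had an adjusted p of 0.0185 with A1 and Abca8a of 0.0372 with A1 + OVA, on counts of this size, in edgeR's quasi-likelihood test. Abcb9, one of the undetectable genes, also had an adjusted p of 0.0118 with A1 in that fit, on 2, 3, 3 and 1 counts in the control samples and 0 in all 4 A1-treated samples. No fold is given for it, since both groups lie at or under the floor.

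**Figure D4:**
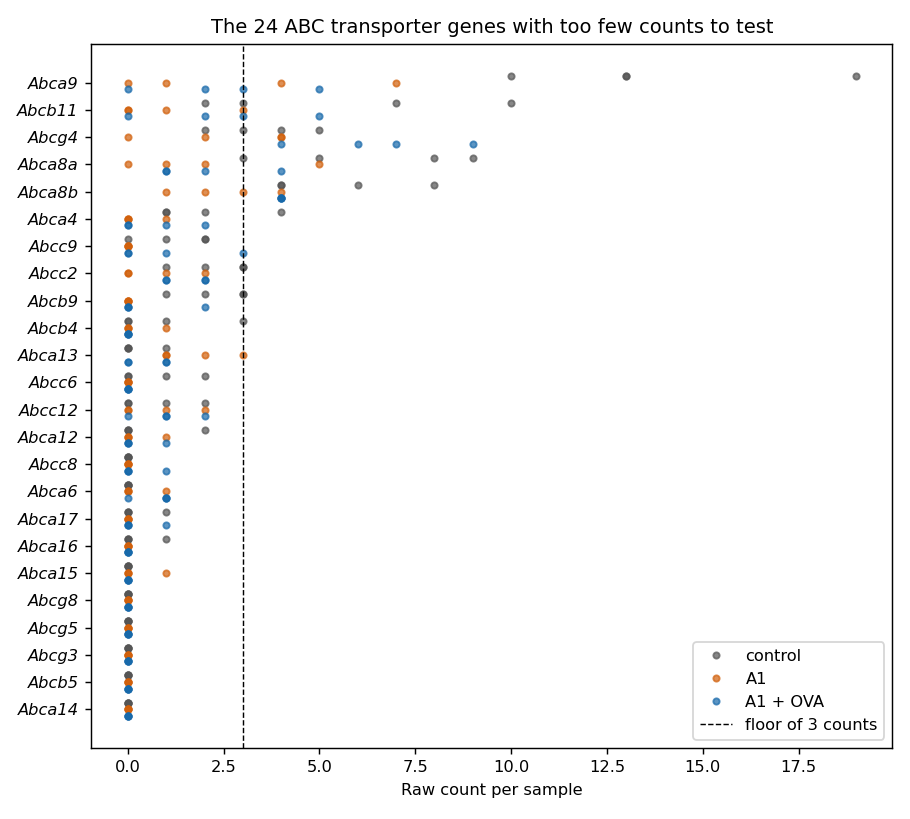
Raw counts per sample of the 24 ABC transporter genes with too few counts to test, with a dashed line at the floor of 3 counts. Of these genes, 18 lie at or under the line in all 12 samples, and the control samples of Abca9 lie at 10 to 19 counts.

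By subfamily, all D, E and F genes could be tested. In A 4 of 15 were tested, in B 6 of 10, in C 5 of 10 and in G 1 of 5. With A1, the calls were 0 higher and 3 lower in A, 2 and 2 in C, 1 and 0 in E, 2 and 0 in F and 0 and 0 in G (edgeR's quasi-likelihood test). With A1 + OVA they were 0 and 1 in A, 2 and 2 in C, 1 and 0 in E, 1 and 0 in F and 0 and 1 in G. The calls in B and D as a whole are not reported here. Of all tested genes, 31.7% were called higher and 31.1% lower with A1, and 29.7% and 27.9% with A1 + OVA. The subfamilies hold few genes, and no difference between them was tested.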

How the data were processed

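RNA was measured in 12 samples of MSCs in 3 groups, assigned by their titles, which recur as column names. Per the labels, the authors made strand-specific polyA libraries, aligned the reads to GRCm38 with STAR 2.7 and counted them with featureCounts 2.0. The values that the authors deposited are raw counts per Ensembl gene, without normalization or filter. Reads shared by near-identical genes may be lost or split in such counts.

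Symbols, biotypes, lengths and coordinates were taken from GENCODE M21 on GRCm38, which holds 99.53% of the identifiers. Protein-coding genes that passed filterByExpr were tested by edgeR's quasi-likelihood method (version 4.0.16 in R 4.3.3) after TMM normalization, in 1 fit of all 12 samples with group as the only term. The adjustment of p-values was that of Benjamini and Hochberg over 11314 genes. CPM and RPKM use the normalized library sizes. The SE was derived from the log2 fold change and the F statistic of each test. Intervals at 95% were built from it with a t quantile. Depth was 13702348 to 16881995 counts per sample, and the floor of 3 counts covers counting error only.

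The ABC genes and the lists of partners and markers were chosen with earlier results of these data known. All values are given for members with a DEG call (adjusted p under 0.05 and a log2 fold change of 0.5 or more in size) in any comparison and for the highest member of each subfamily in control MSCs, full statistics for partners with a DEG call, and log2 fold changes or counts for the others. Some genes that this rule selects count in the totals and are not reported here. Alternatives were DESeq2 1.42.0, the study's tool, 2 other normalizations, other filters, all genes, fewer groups, a replicate block, a threshold of 1, and each sample left out. On counts simulated for A1 against control over 11314 genes, edgeR recovered 85% of the genes changed by 0.5 and 95% of those changed by 1 on the log2 scale. The simulation changed 100 genes by each amount, equally in both directions, and gave 9 false calls. Far fewer genes changed there than were called in the data, so that it does not cover normalization under a broad change.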

Additional observations from a re-analysis of the deposited data

Results flagged for a closer look

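Of 72 groups of 4 samples, 3 for each of the 24 tested genes, 7 had 1 sample apart from the other 3, where about 3.6 would be flagged by chance. The gap to the nearest other sample, as a share of the range of the group, was over the 95% critical value of Dixon's test for 4 samples in each. Among control samples, Abca5 was low in sample 1 (21.7 CPM against 24.2 to 24.8, gap 0.833), Abcb1b was low in sample 1 (55.5 CPM against 58.0 to 58.3, gap 0.882), Abcc3 was high in sample 3 (4.33 CPM against 3.47 to 3.61, gap 0.838) and Abce1 was high in sample 2 (502 CPM against 473 to 477, gap 0.861). With A1, Abcf1 was high in sample 2 (242 CPM against 234 to 235, gap 0.939). With A1 + OVA, Abcb6 was low in sample 2 (0.570 CPM against 1.09 to 1.19, gap 0.836) and Abcf3 was high in sample 3 (49.9 CPM against 45.0 to 45.5, gap 0.891).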

How the results depend on the processing

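Of 1317 single-gene values under the alternatives, 1274 kept their direction and their side of the threshold, 25 lost a call, 7 gained one and 11 changed sign, and 50 of the 66 pairs of a gene and a comparison had no change. A threshold of 1 on the log2 fold change moved the DEGs among ABC genes to 0 higher and 2 lower with A1 and to 0 higher and 2 lower with A1 + OVA. Leaving out each sample in turn, DEGs that rose with A1 + OVA were 1 to 2 (2 without the control sample 2 or the A1 + OVA sample 1), DEGs higher with A1 + OVA than with A1 were 0 to 1 (1 without the A1 sample 1 or the A1 + OVA sample 2), and partner genes that differed between the treatments were 0 to 3 higher and 0 to 2 lower. The changes of sign, all without a call and all with 1 sample left out, were seen for Abcb6 (range -0.51 to 0.019) and Abcb10 (-0.054 to 0.023) with A1, Abca3 (-0.051 to 0.018) and Abcc10 (-0.16 to 0.080) with A1 + OVA, and, between the treatments, Abcb6 (-0.32 to 0.22) and Abcc4 (-0.069 to 0.0096), and the cause was not tested. Abcb6 had no value with at least 10 counts in every sample. Abcc10 with A1 was at the threshold (adjusted p = 0.05 in edgeR's quasi-likelihood test) without the control sample 2.

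The deviations of same-numbered samples from the mean of their group correlated by 0.022 on average (12 pairs, -0.132 to 0.156), and those of the 36 other pairs by -0.007, and 4 of 12 samples were closest to their own number, so that the numbers were not taken to pair samples. With the replicate number as a block, ABC genes called were 6 higher and 11 lower with A1, 5 and 9 with A1 + OVA, and 2 and 0 between the treatments, as without it. With a floor of 10 counts, 23 ABC genes were not detectable in place of 18, and with the longest transcript as length 21 reached 1 RPKM in place of 19.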
